A study of Homo sapiens with 6 samples.

Results

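Hypoxia response genes are genes that cells raise, or use to sense and limit the response, when oxygen is short. The 33 described here were chosen by symbol from the annotation deposited with the log2 FPKM table, joined by gene ID to the count table. All 33 were present among the 18404 genes of the log2 FPKM table and the 60504 of the count table. All 33 also passed the filter on low counts and stood among the 15116 genes tested.

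The samples were HepG2 cells, an established human liver carcinoma line, in 2 groups of 3 libraries. The oridonin group had 10 µM oridonin, a plant diterpenoid, for 48 h, and the labels do not say how much DMSO those wells held. The DMSO group had 0.1% DMSO for 48 h. Both groups were adherent cultures in DMEM on 6-well plates, the labels give no oxygen level, and no sample is labelled as hypoxic. HepG2 is a single tumour line, so the groups stand for this line only, and the series title names the question as how oridonin acts on metabolism.

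The response is run by hypoxia-inducible factors (HIF). HIF1A and EPAS1 encode the oxygen-regulated subunits, which pair with ARNT and bind short DNA elements near their targets. When oxygen is present, the prolyl hydroxylases EGLN1, EGLN2 and EGLN3 mark these subunits, and the ubiquitin ligase subunit VHL then sends them for breakdown. The asparaginyl hydroxylase HIF1AN blocks their contact with coactivators. This control acts on the proteins, whereas the libraries measured transcripts. In the liver the best known product of the response is erythropoietin, the hormone of red cell formation, and HepG2 is a classical line for the study of its gene, EPO.

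Promoters of 6 genes are shown because their genes lead the changes described below or hold the binding motif of HIF. The core of that motif is ACGTG or GCGTG. Each sequence runs 5′ to 3′ on the strand of the gene, from RefSeq on GRCh38.p14, and capitals mark the core on either strand (read on the other strand, CACGT or CACGC). Of the 250 bases before the RefSeq start site, the bases ahead of any exon of the gene in GENCODE release 29 are printed.
LOX promoter, chr5:122078361-122078509, minus strand: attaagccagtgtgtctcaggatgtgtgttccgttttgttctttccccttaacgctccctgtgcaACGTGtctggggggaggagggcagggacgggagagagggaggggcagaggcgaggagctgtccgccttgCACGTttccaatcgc
BNIP3 promoter, chr10:131982014-131982173, minus strand: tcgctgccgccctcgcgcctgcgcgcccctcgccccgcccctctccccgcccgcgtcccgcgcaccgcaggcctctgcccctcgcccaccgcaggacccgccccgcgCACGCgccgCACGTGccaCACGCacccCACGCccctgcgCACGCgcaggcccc
PLOD2 promoter, chr3:146161185-146161434, minus strand: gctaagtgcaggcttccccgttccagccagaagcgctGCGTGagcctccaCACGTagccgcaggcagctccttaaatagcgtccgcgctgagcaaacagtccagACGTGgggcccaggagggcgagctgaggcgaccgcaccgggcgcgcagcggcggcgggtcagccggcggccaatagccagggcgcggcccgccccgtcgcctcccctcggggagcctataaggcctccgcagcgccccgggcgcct
CITED2 promoter, chr6:139374649-139374898, minus strand: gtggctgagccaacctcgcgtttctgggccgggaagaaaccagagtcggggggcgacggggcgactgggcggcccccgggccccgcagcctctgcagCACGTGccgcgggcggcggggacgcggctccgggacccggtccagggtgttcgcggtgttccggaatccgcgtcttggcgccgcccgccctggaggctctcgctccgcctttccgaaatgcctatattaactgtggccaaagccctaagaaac
EPO promoter, chr7:100720218-100720467, plus strand: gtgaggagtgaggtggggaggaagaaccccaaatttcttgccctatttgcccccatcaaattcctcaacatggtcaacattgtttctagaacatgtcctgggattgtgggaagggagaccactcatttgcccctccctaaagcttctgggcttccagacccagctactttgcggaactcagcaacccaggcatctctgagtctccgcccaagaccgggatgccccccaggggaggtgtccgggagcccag
ANGPTL4 promoter, chr19:8363905-8364150, plus strand: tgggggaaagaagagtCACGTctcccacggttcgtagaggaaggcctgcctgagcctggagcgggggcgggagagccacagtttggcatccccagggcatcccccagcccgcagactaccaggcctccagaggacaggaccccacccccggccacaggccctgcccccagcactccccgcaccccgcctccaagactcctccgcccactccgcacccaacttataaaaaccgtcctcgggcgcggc

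The ACGTG core lay 4 times in the 250 bases before the first listed of 3 RefSeq starts of LOX, beginning at -185, -116, -98 and -42, counted from the start site. The first 2 of these stand in the printed stretch. BNIP3 and CITED2 each held CACGTG, which reads as ACGTG on both strands and is counted on each. The EPO window held neither core, which says only that these letters are not in this window. The ANGPTL4 and PLOD2 stretches lie inside the spans of their genes in GENCODE, whose annotated starts are further upstream, but outside their exons. RefSeq windows matched 27 of the 33 genes, all but LOXL2, VEGFA, BNIP3L, NDRG1, VHL and HILPDA. Of these 27, 13 (48.1%) held ACGTG on either strand, against 5935 of all 27305 genes with windows (21.7%), and 15 (55.6%) held GCGTG, against 36.2% of all. ACGTG was in 9 of the 17 matched genes called lower with oridonin, in 2 of the 3 called higher and in 2 of the 7 not called. A match of letters is a description and was not tied to binding in these cells.

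Oridonin lowered most of the 33 transcripts in HepG2 cells, with EPO and the collagen crosslinker LOX at the front, and raised a few. EPO was 3.19-fold lower and LOX 2.01-fold lower with oridonin. The lipase inhibitor gene ANGPTL4 was 1.94-fold higher and LOXL2, a paralog of LOX, 1.84-fold higher. The transcripts of the factors themselves, HIF1A and EPAS1, did not pass the test. A gene was called at an adjusted p under 0.05 in edgeR's quasi-likelihood test over all 15116 genes. By that rule 20 of the 33 genes (60.6%) were called lower, against 21.3% of all genes tested, and 5 (15.2%) were called higher, against 20.6% of all. In either direction 25 of the 33 (75.8%) were called, against 41.9% of all. The 33 genes were chosen with earlier results of these data known. In a mixed list of other HIF targets, 57 of them tested, 38.6% were called lower and 29.8% higher. The oridonin and DMSO libraries did not overlap for 26 of the 33 genes, against 51.6% of all genes. The median log2 fold change was -0.24 over the 33 genes and 0.01 over all genes. With scaling by total counts the split was 17 lower and 7 higher, and the upward share of all calls was 65.5% against 49.2% with the trimmed mean of M values (TMM). In RNA from whole cultures, fewer cells with a transcript and less transcript per cell cannot be told apart.

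Library totals ran from 27674586 to 30739574 counts with oridonin and from 22250202 to 29352396 counts in DMSO. The labels do not say that the 3 wells of a group were separate cultures, so p-values reflect only how far these libraries varied, and that variation may be technical. All 10 hepatocyte markers had counts in every library, with sums of 17120 to 19670 CPM (counts scaled to library size, here without TMM) with oridonin and 27500 to 31390 CPM in DMSO. Among them FGB was higher with oridonin, at 12.9 to 14.8 CPM, against 5.05 to 6.10 CPM in DMSO. HNF4A and TTR overlapped between groups, and the rest were lower in every oridonin library than in any DMSO library. Markers of B and plasma cells also moved with the groups, with a summed 37.5 to 86.8 CPM with oridonin and 4.27 to 17.9 CPM in DMSO. MS4A1, a B cell marker on this joint list, was at 0 in all 6 libraries. Among these 10 markers the immunoglobulin genes were low in DMSO library 1, where IGKC had 0 counts. They were also lower in oridonin library 1 than in oridonin libraries 2 and 3. IGHA1, for example, had 8.26, 31.6 and 28.0 CPM in oridonin libraries 1 to 3. None of the marker lists was tested for its part in the results. Fibroblast markers summed to 46.7 to 48.8 CPM with oridonin and 65.8 to 73.2 CPM in DMSO. The lower sum came from PDGFRB, at 31.2 to 35.1 CPM with oridonin and 56.2 to 63.3 CPM in DMSO, whereas ACTA2 had 9.98 to 11.1 CPM with oridonin and 7.43 to 8.63 CPM in DMSO, and COL1A1 had 1.85 to 2.96 CPM with oridonin and 0.27 to 1.51 CPM in DMSO. Gut markers summed to 307 to 323 CPM with oridonin and 365 to 395 CPM in DMSO, and nearly all of that was VIL1. Other gut markers were higher with oridonin, as the B and plasma cell markers were, with PIGR at 1.66 to 5.71 CPM with oridonin and 0.09 to 0.32 CPM in DMSO, and LGALS4 at 2.54 to 3.61 CPM with oridonin and 0.09 to 1.499 CPM in DMSO. Leukocyte markers summed to 5.32 to 6.79 CPM with oridonin and 4.91 to 5.18 CPM in DMSO. Endothelial markers summed to 8.09 to 9.04 CPM with oridonin and 5.40 to 7.29 CPM in DMSO, most of it from PECAM1. CDH5, a scarce endothelial marker, was lower with oridonin, at 0.13 to 0.14 CPM, against 0.36 to 0.51 CPM in DMSO. Macrophage markers summed to 428 to 467 CPM with oridonin and 668 to 691 CPM in DMSO, nearly all from LYZ, with CD68 at 0 in the oridonin libraries.

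**Figure D1:**
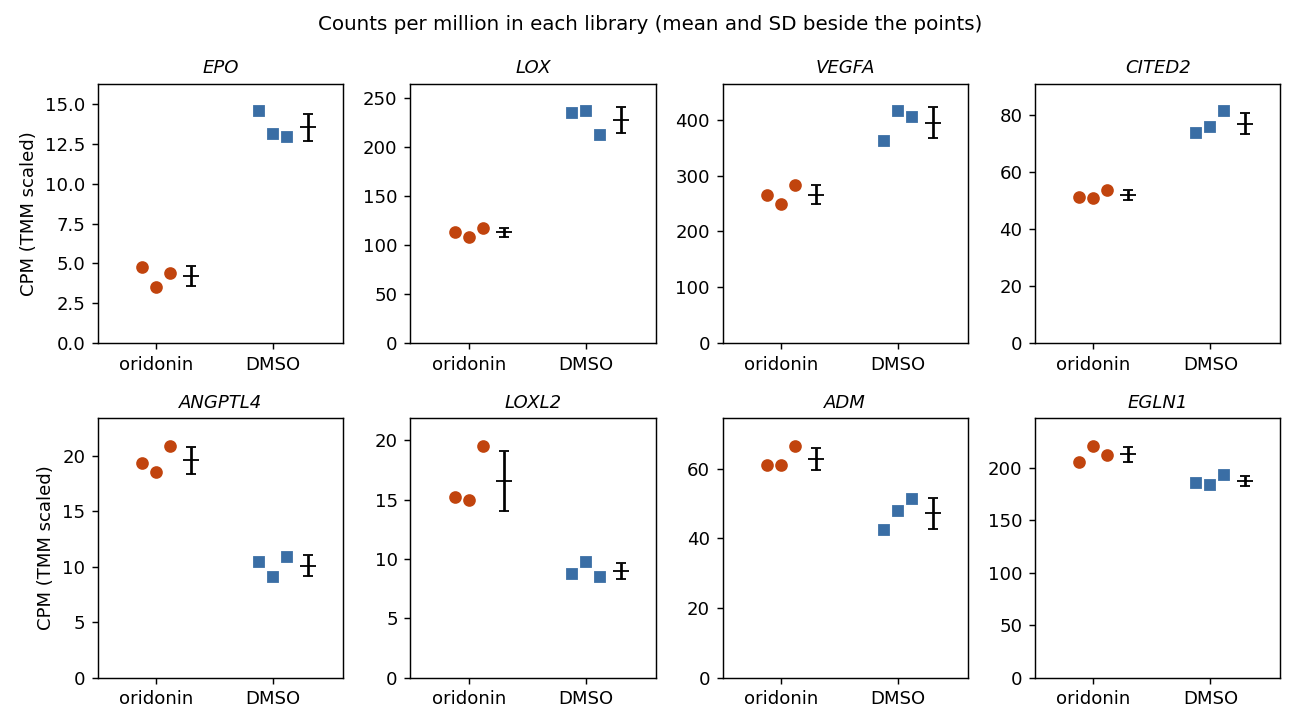
TMM-scaled CPM (vertical axis, from 0) in each library for 8 of the genes, with oridonin libraries as circles on the left and DMSO libraries as squares on the right; bars beside the points are the mean and SD of 3 libraries. In all 8 panels the groups do not overlap, with EPO at 3.54 to 4.74 CPM with oridonin and 12.9 to 14.5 CPM in DMSO.

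Of the 8 genes that form, sense or restrain HIF, 5 were not called. EPAS1, which encodes the subunit of HIF that drives EPO, had 582, 577 and 598 CPM after TMM scaling in oridonin libraries 1 to 3, against 572, 592 and 613 CPM in DMSO libraries 1 to 3. The groups overlapped, and the log2 fold change was -0.02 (95% interval -0.11 to 0.08, edgeR adjusted p = 0.811). With total-count scaling the sign turned, to 0.06. HIF1A, which encodes the other subunit, had 160.1, 178 and 156 CPM with oridonin and 154, 157 and 149.6 CPM in DMSO. Its highest oridonin library stood above the rest while the others lay close together, and the log2 fold change of 0.10 (95% interval -0.015 to 0.22) was not called, with an adjusted p of 0.153 from edgeR. It was called with total-count scaling, at 0.18 (edgeR adjusted p = 0.0126). ARNT, the common partner, averaged 35.1 ± 1.25 CPM with oridonin and 34.0 ± 2.62 CPM in DMSO (SD, n = 3 each) and was not called.

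Of the prolyl hydroxylases, EGLN1, the main oxygen sensor in most cells, rose. It had 206, 221 and 212 CPM in the oridonin libraries and 185, 184 and 193 CPM in the DMSO libraries. Every oridonin library lay above every DMSO library, though the difference was small, at 1.14-fold (log2 fold change 0.18 ± 0.05, SE, edgeR adjusted p = 0.00534). EGLN3, itself a HIF target, had 55.9, 55.0 and 51.8 CPM with oridonin, against 59.8, 54.4 and 57.3 CPM in DMSO. These values overlapped, and a log2 fold change of -0.07 (95% interval -0.20 to 0.05) was not called, with a sign that turned to 0.0059 under total-count scaling. EGLN2 was counted at only 61 to 67 counts per library with oridonin and 44 to 75 in DMSO. The readthrough gene RAB4B-EGLN2, which shares 30.6% of the exon bases of EGLN2 on the same strand, had 0 counts in all 6 libraries, so reads in the shared exons may have been left out. The level of EGLN2 is therefore uncertain, and its log2 fold change of -0.01 (95% interval -0.41 to 0.39) leaves room for a change either way.

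HIF1AN, the factor-inhibiting hydroxylase, had 81.8, 79.4 and 76.57 CPM with oridonin and 76.55, 71.6 and 73.3 CPM in DMSO. The lowest oridonin library and the highest DMSO library were nearly level, and the log2 fold change of 0.10 (95% interval -0.01 to 0.21) was not called (edgeR adjusted p = 0.127), although it was with total-count scaling, at 0.18. VHL fell, with 83.9, 89.6 and 90.5 CPM in the oridonin libraries and 107, 103 and 102 CPM in the DMSO libraries. Its groups did not overlap, at a log2 fold change of -0.24 ± 0.05 (SE, edgeR adjusted p = 0.00101). CITED2, a HIF target whose product competes with HIF for coactivators, had 51.3, 50.8 and 53.8 CPM with oridonin, against 74.0, 76.0 and 81.4 CPM in DMSO. This was the largest change among the 8 sensing and control genes, 1.49-fold lower with oridonin (log2 fold change -0.57 ± 0.06, SE, edgeR adjusted p = 3.76e-07). In all, 2 of these 8 genes (25.0%) were called lower and 1 (12.5%) higher, near the 21.3% and 20.6% of all genes.

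A wider list of 22 HIF cofactors and degradation factors had 20 tested members, of which 4 were called higher and 4 lower. That is 20% each way, near the 20.6% higher and 21.3% lower of all genes tested. USP20, a deubiquitinase that acts on HIF1A protein, rose at a log2 fold change of 0.53. ELOB and ELOC, the elongins that hold VHL in its ligase, rose at 0.34 and 0.22. RACK1, a ribosomal scaffold that also binds HIF1A, was called lower at -0.40. EP300 and CREBBP, the coactivators, had log2 fold changes of -0.12 each and were not called.

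Secreted factors and surface ligands formed the first group in which each of 7 genes was called. Of them 5 (71.4%, against 21.3% of all genes) were lower and 2 (28.6%, against 20.6%) higher. EPO (chromosome 7, 100720800 to 100723700 on hg38, plus strand) had 4.74, 3.54 and 4.40 CPM in oridonin libraries 1 to 3 and 14.5, 13.1 and 12.9 CPM in DMSO libraries 1 to 3. The lowest DMSO library was well above the highest oridonin library. In raw counts that was 151, 109 and 124 with oridonin and 319, 374 and 354 in DMSO. The log2 fold change was -1.68 ± 0.11 (95% interval -1.91 to -1.44, edgeR adjusted p = 5.48e-09), and it ran from -1.77 to -1.56 over 12 other settings. It was the lowest of the 33.

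Among the genes that act on EPO in the liver, HNF4A, which encodes a nuclear receptor bound at its enhancer, averaged 254 ± 10.3 CPM with oridonin and 262 ± 7.5 CPM in DMSO (SD, n = 3 each) and was not called. The list of 15 genes, which also holds the receptor gene EPOR, had 6 called lower and the other 9 not called. Calls in either direction thus made up 40% of the list, near the 41.9% of all genes, and those lower are set against 21.3% of all genes. RXRA, a nuclear receptor that pairs with many others, led them at a log2 fold change of -0.41. NR2F1 and NR2F2, orphan receptors known to repress EPO, fell at -0.26 and -0.40. The receptor gene EPOR had 5.02 ± 0.787 CPM with oridonin and 5.88 ± 0.417 CPM in DMSO (SD, n = 3 each), a difference that was not called.

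VEGFA, the vascular growth factor, had 265, 249 and 284 CPM with oridonin and 363, 415 and 406 CPM in DMSO. All oridonin values lay below all DMSO values, by 1.48-fold (log2 fold change -0.57 ± 0.06, SE, edgeR adjusted p = 9.92e-07). Its paralog VEGFB fell too, at -0.67, while PGF, the placental member of the family, rose at 0.54. EFNA1, a membrane-anchored ligand of Eph receptors, had 71.9, 63.0 and 65.1 CPM in the oridonin libraries, against 108, 105 and 97.3 CPM in the DMSO libraries. It fell at a log2 fold change of -0.63 ± 0.06 (SE, edgeR adjusted p = 2.75e-07), with no overlap between groups. EFNA3, a paralog also on chromosome 1, was called lower at -0.44 (edgeR adjusted p = 0.0448), and the call was lost in 9 of 12 other settings. A gene on the same strand that shares 44.7% of the exon bases of EFNA3 had 0 counts in all libraries, so its level is uncertain as well. STC2, a secreted glycoprotein of calcium and phosphate balance, averaged 328 ± 25.9 CPM with oridonin and 432 ± 12.9 CPM in DMSO (SD, n = 3 each) and fell at -0.40.

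ANGPTL4 and ADM went the other way. ANGPTL4 (chromosome 19, 8363289 to 8374373 on hg38, plus strand), which encodes an inhibitor of lipoprotein lipase and is a target of PPAR receptors as well as of HIF, had 19.4, 18.5 and 20.9 CPM with oridonin and 10.4, 9.06 and 10.9 CPM in DMSO. Oridonin libraries were all near one level and DMSO libraries near another, with nothing between. Its rise came to 0.96 ± 0.09 on the log2 scale (SE, edgeR adjusted p = 1.86e-07). ADM, the vasodilator adrenomedullin, averaged 62.8 ± 3.12 CPM with oridonin and 47.2 ± 4.50 CPM in DMSO (SD, n = 3 each). It rose at 0.41 ± 0.07 (SE, edgeR adjusted p = 1.14e-04), whereas its paralog ADM2 fell at -0.36.

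**Figure D2:**
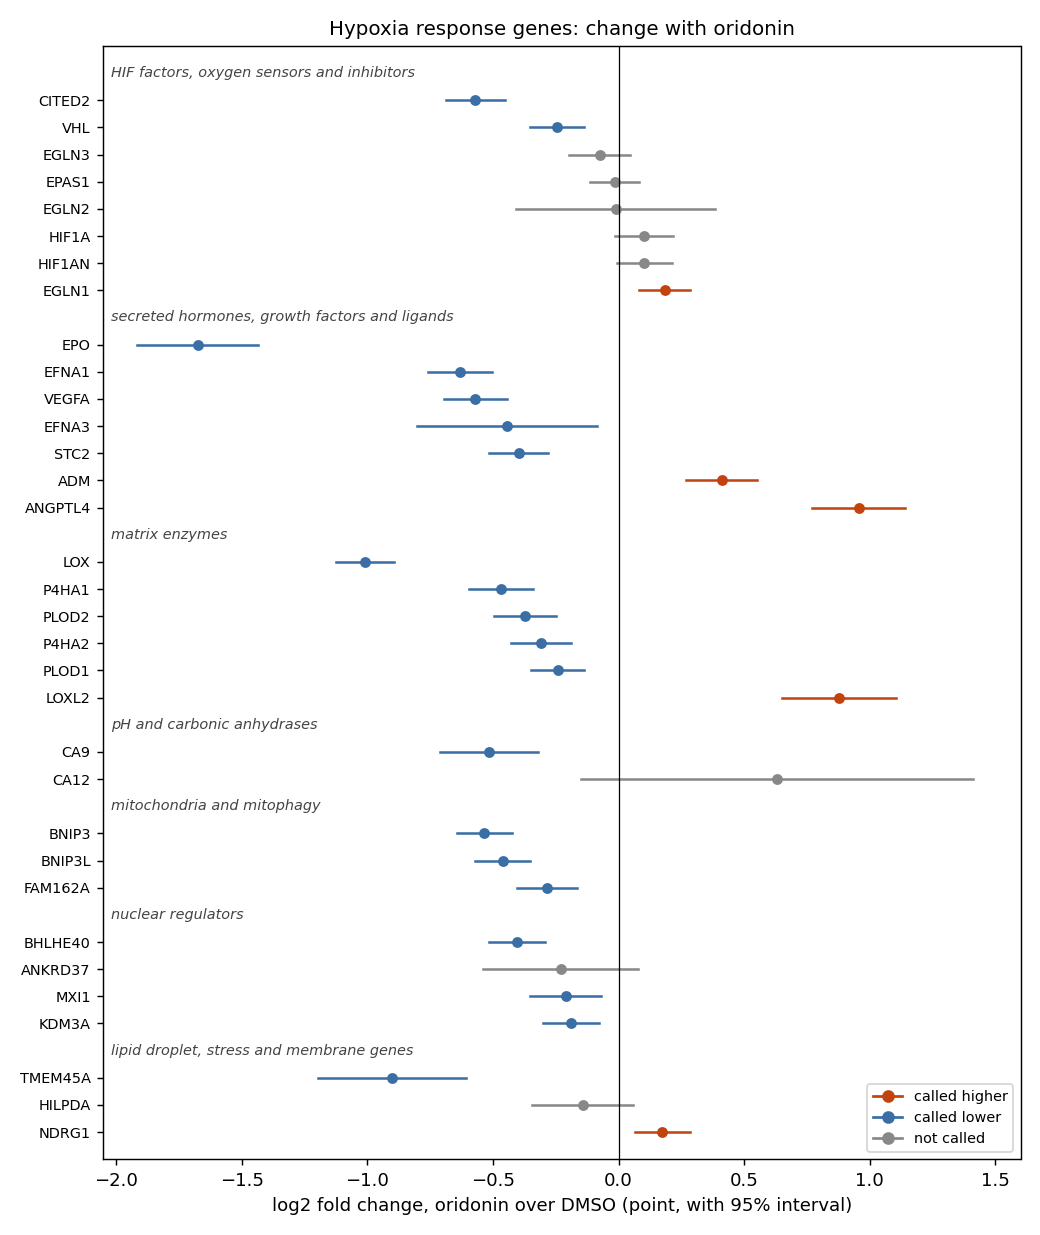
Log2 fold change of each of the 33 genes (horizontal axis, oridonin over DMSO, n = 3 libraries each), grouped by role; points are edgeR estimates, lines are 95% intervals, and colour gives the call. The points run from -1.68 for EPO to 0.96 for ANGPTL4, with 20 called lower and 5 called higher.

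Enzymes that build and crosslink collagen were the second group in which each gene was called. Of the 6 genes, 5 (83.3%, against 21.3% of all genes) were lower and 1 (16.7%, against 20.6%) higher. LOX (chromosome 5, 122063195 to 122078285 on hg38, minus strand), the lysyl oxidase that starts crosslinks, had 113, 108 and 117 CPM in the oridonin libraries and 234, 236 and 211 CPM in the DMSO libraries. The values of a group lay within a narrow band, and the bands were far apart. The log2 fold change was -1.01 ± 0.05 (95% interval -1.13 to -0.90, edgeR adjusted p = 4.2e-10), the smallest adjusted p of the 33 genes. In raw counts LOX had 3306 to 3601 per library with oridonin and 5134 to 6720 in DMSO. LOX is also a gene of fibroblasts, and of the 7 fibroblast markers PDGFRB was lower with oridonin too, as given above, while ACTA2 and COL1A1 were higher. Their part in the LOX result was not tested.

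LOXL2, a lysyl oxidase paralog that HIF can also induce, had 15.2, 14.96 and 19.5 CPM with oridonin and 8.70, 9.73 and 8.51 CPM in DMSO. One oridonin library stood above the other 2, and all 3 were above every DMSO library (log2 fold change 0.88 ± 0.11, SE, edgeR adjusted p = 6.52e-06). On the length-corrected FPKM scale LOX remained the more abundant of the pair in both groups, by 7.19 ± 0.803 times with oridonin and 26.4 ± 1.44 times in DMSO (SD, n = 3 each). LOXL4, of the same family, fell at -0.88. LOXL1 and LOXL3, both scarce, were called lower at -1.47 and -1.55, with mean levels at or under 0.47 CPM with oridonin and at or under 1.39 CPM in DMSO.

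The procollagen hydroxylases fell by smaller amounts. P4HA1 and P4HA2, catalytic subunits of collagen prolyl hydroxylase, had log2 fold changes of -0.47 and -0.31, and PLOD1 and PLOD2, which hydroxylate lysines, had -0.24 and -0.37. P4HA1 averaged 102 ± 5.19 CPM with oridonin and 141 ± 10.8 CPM in DMSO (SD, n = 3 each). PLOD2, whose promoter is printed above, averaged 295 ± 6.57 CPM with oridonin and 382 ± 34.6 CPM in DMSO (SD, n = 3 each). PLOD3 did not follow, at 0.11 with an adjusted p of 0.145 from edgeR. In the wider list of collagen-modifying genes, 10 of 14 tested were called lower (71.4%, against 21.3% of all genes) and 2 higher (14.3%, against 20.6%). SERPINH1, the collagen chaperone, fell at -0.44, and COLGALT2, a collagen galactosyltransferase, rose at 0.48.

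CA9, the membrane carbonic anhydrase often used as a marker of hypoxic tumour cells, had 49.1, 37.1 and 44.8 CPM with oridonin and 67.1, 61.5 and 58.8 CPM in DMSO. The oridonin libraries were spread more than the DMSO libraries but stayed below them, at a log2 fold change of -0.51 ± 0.09 (SE, edgeR adjusted p = 5.39e-04). Of the exon bases of CA9, 38.5% are shared with ARHGEF39 on the opposite strand, so its value is uncertain as far as reads were counted without strand. CA12, a second membrane carbonic anhydrase, had 13 to 25 counts per library with oridonin and 8 to 14 in DMSO, and its log2 fold change of 0.63 (95% interval -0.15 to 1.41) was not called.

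All 3 mitochondrial genes were called lower, against 21.3% of all genes. BNIP3, a mitochondrial outer membrane protein that starts mitophagy, had 149.9, 143 and 144 CPM with oridonin and 219, 217 and 197 CPM in DMSO. The groups were widely separated, with a log2 fold change of -0.54 ± 0.05 (SE, edgeR adjusted p = 3.47e-07). Its paralog BNIP3L averaged 78.8 ± 2.66 CPM with oridonin and 108 ± 3.74 CPM in DMSO (SD, n = 3 each), a log2 fold change of -0.46. FAM162A, a mitochondrial protein linked to hypoxic cell death, fell at -0.28.

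Among the nuclear regulators, BHLHE40, a repressor that also acts in the clock, averaged 214 ± 4.17 CPM with oridonin and 283 ± 18.6 CPM in DMSO (SD, n = 3 each) and fell at -0.40. The histone demethylase gene KDM3A was called lower at -0.19 (edgeR adjusted p = 0.00863) and the MYC antagonist MXI1 at -0.21 (edgeR adjusted p = 0.0167). Both calls depended on the setting: KDM3A lost its call with total-count scaling, at -0.11, and MXI1 there at -0.13, without oridonin library 3 at -0.17 and without DMSO library 2 at -0.17. ANKRD37, an ankyrin repeat protein, was not called at -0.23 (95% interval -0.54 to 0.08), and 35.2% of its exon bases are shared with UFSP2 on the opposite strand. Among the paralogs of MXI1, MXD4 and MXD1 rose at 0.71 and 0.42 and MXD3 fell at -0.75.

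The last 3 genes differed from each other. TMEM45A, a transmembrane protein gene, had 3.61, 3.64 and 3.23 CPM with oridonin and 7.25, 7.13 and 5.30 CPM in DMSO. One DMSO library lay below the other 2 but above every oridonin library, and the gene fell at -0.90 ± 0.14 on the log2 scale (SE, edgeR adjusted p = 6.06e-05). HILPDA, a lipid droplet protein that inhibits fat breakdown, averaged 10.3 ± 0.695 CPM with oridonin and 11.4 ± 1.07 CPM in DMSO (SD, n = 3 each) and was not called. NDRG1, a stress and differentiation gene, averaged 343 ± 19.3 CPM with oridonin and 304 ± 12.5 CPM in DMSO (SD, n = 3 each). It was called higher at 0.17 (edgeR adjusted p = 0.0125), and the call was lost without oridonin library 3, at 0.13, without DMSO library 1, at 0.15, and without DMSO library 2, at 0.16. Its paralogs split, with NDRG4 higher at 0.81 and NDRG2 lower at -0.57.

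**Figure D3:**
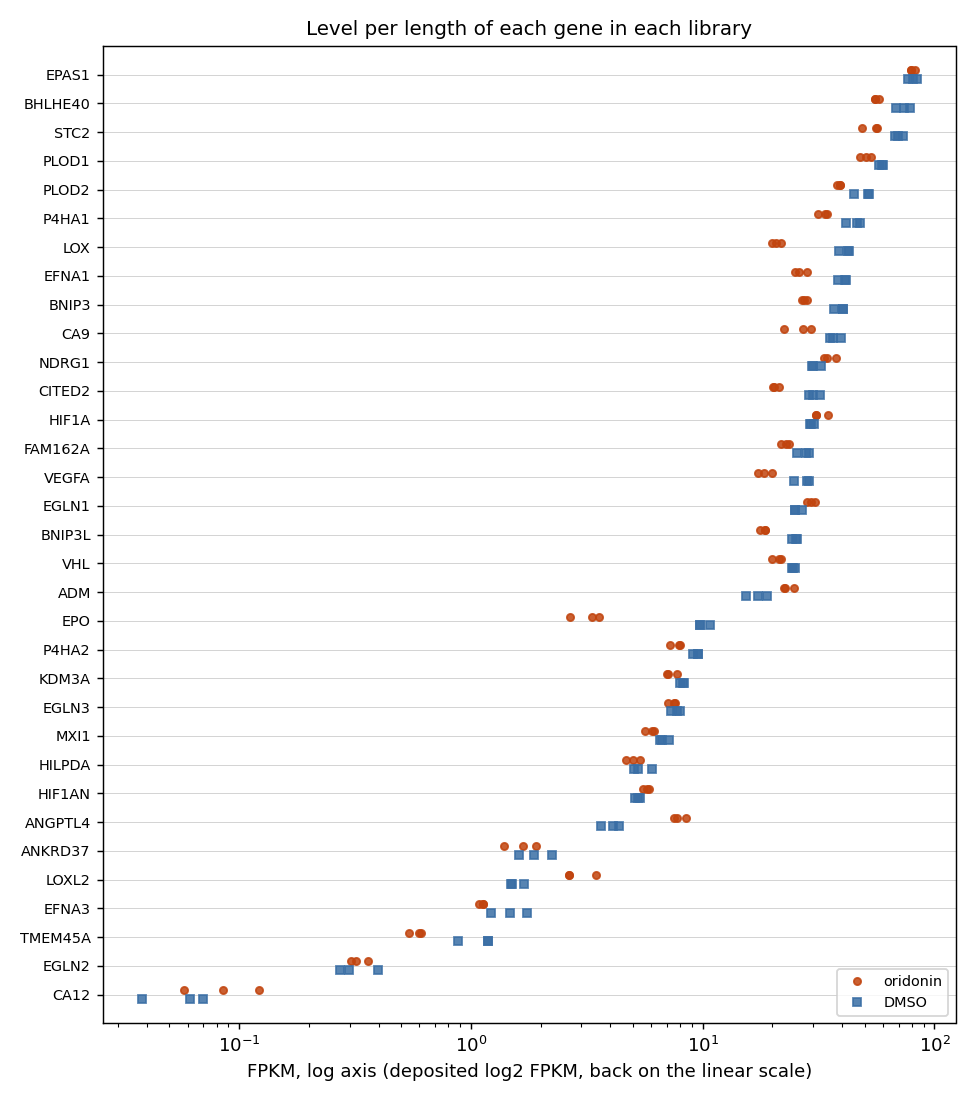
FPKM of each gene in each library (horizontal log axis; oridonin as circles above, DMSO as squares below on each line), ordered by the DMSO mean. Levels run from 80.5 FPKM for EPAS1 in both groups to 0.0886 FPKM with oridonin and 0.0564 FPKM in DMSO for CA12, and the gap between symbols is widest for EPO.

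Levels in FPKM, which scales counts by gene length and library size, placed these genes over a wide range. EPAS1 was the highest, at 80.5 ± 1.95 FPKM with oridonin and 80.5 ± 3.35 FPKM in DMSO (SD, n = 3 each). It stood above HIF1A by 2.51 ± 0.211 times with oridonin and 2.72 ± 0.145 times in DMSO. BHLHE40 and STC2 came next in both groups, and EPAS1, BHLHE40 and STC2 overlapped in turn in the DMSO libraries. Of the 32 pairs of neighbours in the DMSO order, 17 overlapped and 15 did not. LOX held rank 16 of 33 with oridonin and rank 7 in DMSO, and EPO held rank 27 with oridonin and rank 20 in DMSO. EPO averaged 3.19 ± 0.459 FPKM with oridonin and 10.1 ± 0.596 FPKM in DMSO (SD, n = 3 each). ANGPTL4 held rank 20 with oridonin, at 7.94 ± 0.517 FPKM, and rank 27 in DMSO, at 4.04 ± 0.379 FPKM. Across the prolyl hydroxylases EGLN1 exceeded EGLN3 by 3.98 ± 0.216 times with oridonin and 3.34 ± 0.171 times in DMSO.

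Glucose transporters and glycolytic enzymes are a large class of HIF targets outside the 33 genes. Of 26 such genes, all tested, 19 (73.1%, against 21.3% of all genes) were called lower and 4 (15.4%, against 20.6%) higher. Their median change was -0.24 on the log2 scale. SLC2A3, a glucose transporter, had the smallest p of those that fell, with 1662 ± 28.8 CPM with oridonin and 2627 ± 52.0 CPM in DMSO (SD, n = 3 each, log2 fold change -0.66). HK1, a hexokinase, had the smallest p of those that rose, with 18.5 ± 1.595 CPM with oridonin and 8.78 ± 0.938 CPM in DMSO (SD, n = 3 each, log2 fold change 1.07). A mixed list of 65 other HIF targets had 57 tested, with 22 called lower (38.6%, against 21.3% of all genes), 17 higher (29.8%, against 20.6%) and a median of -0.07. CCN2, a matricellular protein, had the smallest p of those that fell, at -1.03, and GPRC5A, an orphan receptor, of those that rose, at 2.17. The last list held paralogs of the 33 genes together with some genes that are not paralogs, such as HIGD2A. Of its 21 tested genes, 5 (23.8%) were called lower and 6 (28.6%) higher, against 21.3% and 20.6% of all genes.

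**Figure D4:**
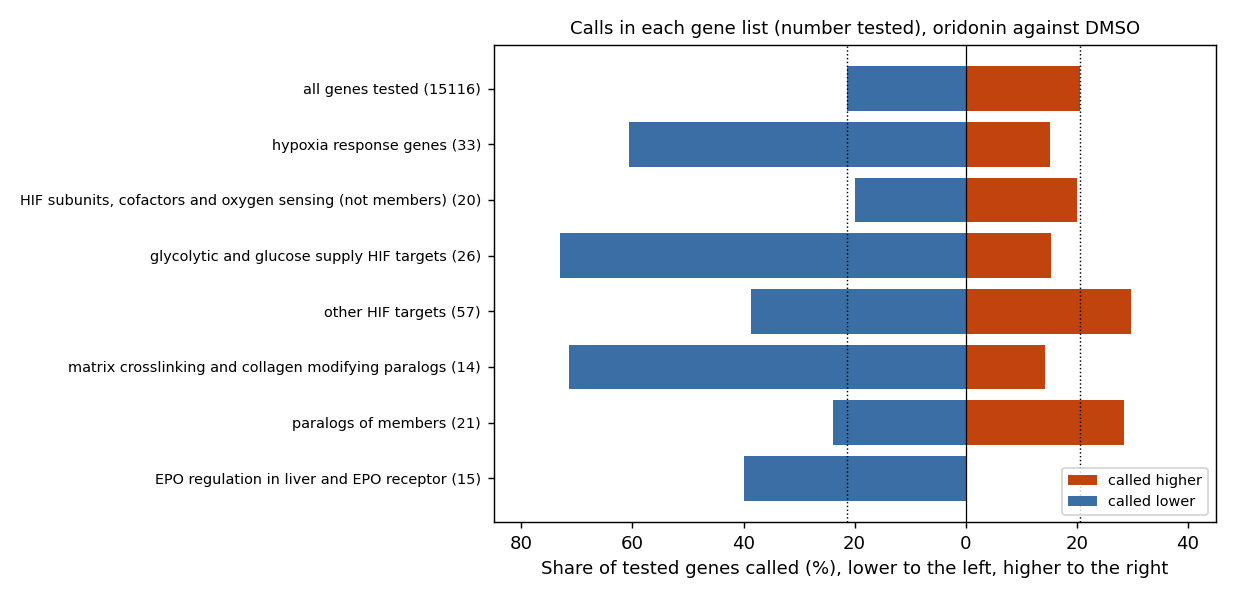
Share of tested genes called lower (bars to the left) and higher (bars to the right) with oridonin in each list, with the number tested in brackets; dotted lines mark the shares over all genes, 21.3% lower and 20.6% higher. The glycolytic list reached 73.1% lower and the 33 hypoxia response genes 60.6% lower, while the list of HIF cofactors had 4 of 20 called each way.

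Likeness of pattern over the 6 libraries was described by Pearson's r of log2 CPM among 9175 protein-coding genes with at least 10 CPM on average in a group. The genes most like EPO were MYO10, ENAH and SLC5A9, and those most like LOX were N4BP2, CDCA7L and COL27A1. Because the libraries fall into the 2 groups, this measure mostly follows the difference between oridonin and DMSO. The 6 named genes all had log2 fold changes below 0, of -0.48, -0.30 and -1.20 for the first 3 and -0.77, -1.13 and -0.51 for the others.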

How the data were processed

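RNA sequencing of 6 HepG2 samples gave 2 tables deposited by the authors. The first holds raw counts per Ensembl gene, with no scaling. The second holds log2 FPKM per gene with no pseudocount, as deposited, for genes with a count in every library; it was used for levels between genes, and its gene lengths are in bases, as deposited. Per the submitters' processing notes hg38 and DESeq2 1.10.1 are named, with no role; for aligner, counter and strandedness the entry is not given in the sources used here, so antisense and overlapping genes cannot be told apart.

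Columns were tied to samples by the column names in the labels. Counts were tested with edgeR 4.0.16 in R 4.3.3 (filterByExpr, TMM, glmQLFit with robust estimation, glmQLFTest, treatment as the only term), with Benjamini-Hochberg adjustment over all tested genes and a threshold of 0.05. SE is the size of the log2 fold change divided by the square root of F. CPM values are TMM-scaled unless stated. limma 3.58.1 and DESeq2 1.42.0 served as alternatives, and the fit was tested on simulated data. Pairs of libraries within a group differed beyond sampling noise, and none was counted as a repeat. Exon overlaps are from GENCODE release 29, whose coordinates equal the deposited ones for 32 of the 33 genes, all but LOX.

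The members and lists were chosen with earlier results of these data known. All 33 members are accounted for. Values per library are given for called members that moved by 0.5 or more on the log2 scale, and for the sensing genes. From each other list the gene with the smallest p in each direction is named, with some but not all paralogs of described members. In the list of paralogs and other genes BHLHE41 (1.14), HIGD1A (0.24) and MAX (0.19) were called higher and CA5A (-0.40) and CA14 (-0.93) lower. These are not described elsewhere, and BHLHE41 was scarce, at a mean of 0.56 CPM with oridonin and 0.26 CPM in DMSO. Other genes named from these lists, such as ARNT, HNF4A, ELOB, EP300, NR2F1 and SERPINH1, were chosen for their role after values were seen.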

Additional observations from a re-analysis of the deposited data

How the results depend on the processing

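Over 12 other settings, 24 of the 33 genes kept both direction and call, among them EPO, LOX, VEGFA, CITED2, ANGPTL4, LOXL2, ADM and EGLN1. EFNA3 lost its call in 9 settings. The count called lower was 17 to 20 and the count called higher 4 to 7. With total-count scaling the median over the 33 genes was -0.17, against 0.09 over all genes. Among the uncalled sensing genes the sign turned as follows. EPAS1 had 0.064 with total-count scaling and 0.0012 with no filter, and -0.0453 to 0.0079 with 1 library left out. EGLN3 had 0.0059 with total-count scaling. EGLN2 had 0.070 with total-count scaling, 0.0056 with no filter and 0.033 with limma on log2 FPKM, and -0.1361 to 0.1755 with 1 library left out. The cause was not tested. The replicate numbers are only numbers: same-numbered libraries deviated together with r of 0.194, 0.0651 and 0.173, though each correlated best with its own number, as a hint from the data. With the replicate block 7689 genes were called in place of 6332, and 27 of the 33 genes in place of 25, HIF1A and HIF1AN added at 0.10 each. CA12, EGLN2 and EFNA3 had under 100 counts per library, and their intervals are the widest among the 33 genes.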
